A study of Mus musculus with 10 samples.

Results

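The interleukin-1 system of mouse macrophages was described through 7 genes: the agonist ligands Il1a and Il1b, the receptor antagonist Il1rn, the related cytokine Il18 and its soluble inhibitor Il18bp, and the receptor chains Il1rap and Il1r2. The genes were chosen by name, with values of these same libraries already in view. All 7 were found by symbol among the 57010 genes of the deposited table, and all 7 were among the 12455 genes tested, a set kept for averaging 10 or more normalized reads over the 10 libraries. A normalized read count is a gene's read number divided by 1 scaling factor per library. Because the choice of genes rested on the measurements themselves, their differences and p-values are given as a description of where each gene lies in a fit over all tested genes, and not as independent evidence.

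The cells were bone marrow-derived macrophages (BMDM), grown from marrow for 7 days in medium with 20 ng/mL of macrophage colony-stimulating factor (M-CSF), which all groups received. Marrow came from wild-type (WT) mice or from mice without WASp (WKO), the product of Was, a blood-cell protein that switches on branched actin assembly. There were 2 WT and 2 WKO unconfined libraries, and 3 WT and 3 WKO libraries from cells held for 1 h at a height of 3 µm under silicone micropillars. The title of the series asks how WASp-driven actin assembly bears on nuclear envelope rupture and inflammation. Strain, age, the nature of the Was allele, the number of mice and the handling of the unconfined cells are not given in the sources used here. Nothing says that replicates came from separate cultures or animals, so p-values measure only the spread between these libraries, which may be technical.

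IL-1α and IL-1β act on the same receptor, in which the ligand-binding chain IL-1R1 pairs with the accessory chain IL-1RAcP, the product of Il1rap, and signals to NF-kB and MAP kinases. IL-1Ra, the product of Il1rn, occupies IL-1R1 without signalling, and the decoy receptor IL-1R2, the product of Il1r2, binds ligand without signalling. Pro-IL-1β and pro-IL-18 are stored in the cytosol until caspase-1 cleaves them, so transcript levels do not give the amount of cytokine released. IL-18 is held in check outside the cell by IL-18BP, the product of Il18bp. In macrophages Il1b is typically a gene of fast induction, whereas Il18 is transcribed at rest.

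Was transcript levels followed the genotype labels: 1474 ± 234 (SD, n = 2) in WT and 148 ± 8.82 (n = 2) in unconfined WKO cells, and 1612 ± 40.1 (n = 3) against 107 ± 15.5 (n = 3) in confined cells. Libraries held between 13295701 and 19329908 reads, and 3 reads, taken as the detection floor, corresponded to a normalized read count between 2.35 and 3.59, a limit that covers counting error only because PCR copies are not independent molecules. All 10 macrophage markers were tested, and Csf1r ranged from 21303 to 37839 over the libraries. In bulk RNA, fewer cells of a type and less RNA per cell cannot be told apart. WKO confined replicate 5 stood apart: the summed level of 12 stromal markers was 10895 there against 224 to 3467 in the other 9 libraries, and it was the highest library for 11 of the 12. Genotype differences in confined cells and confinement differences in WKO are therefore given with and without it for Il1a, Il1b and Il1rn. Stromal sums also differed by genotype: 944 to 1898 in WT against 2520 to 2987 in WKO unconfined libraries. In confined libraries they were 224 to 846 in WT against 983 to 10895 in WKO. Between genotypes 7 of the 11 tested stromal markers were called in confined cells, beside 2.59% of all tested genes. None of them was called in unconfined cells. Other lists also had confined calls: 3 of 10 macrophage, 2 of 4 B lineage, 1 of 3 monocyte, 1 of 2 dendritic cell and 1 of 14 neutrophil and progenitor markers. Marker calls without replicate 5 were not counted. The 14 markers of neutrophils and their progenitors summed to 9309 to 12406 in unconfined WT cells, 27718 to 33419 in unconfined WKO cells, 3519 to 9999.6 in confined WT cells and 9991 to 31235 in WKO confined libraries.

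Sums of other marker lists separated the genotypes in the same way. The 6 B lineage markers summed to 810.3 to 874 in WT against 4047 to 4417 in WKO unconfined libraries, and to 409.7 to 793 in WT against 1572 to 5198 in WKO confined libraries. The 3 monocyte markers summed to 444 to 597 against 648 to 1025, and to 210.5 to 256 against 614 to 647. Macrophage markers summed to 211376 to 212383 against 246268 to 254965, and to 183221 to 211398 against 257047 to 318557. Every WKO library lay above every WT library of its condition for the stromal, B lineage, monocyte and macrophage sums, as for the members Il18, Il18bp and Il1r2 and opposite to Il1rn. The share of all tested genes whose libraries separate in this way was not counted. Lack of overlap, here and below, is therefore a description and not a result about the members. The part of these marker differences in the members' genotype differences was not tested.

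**Figure D1:**
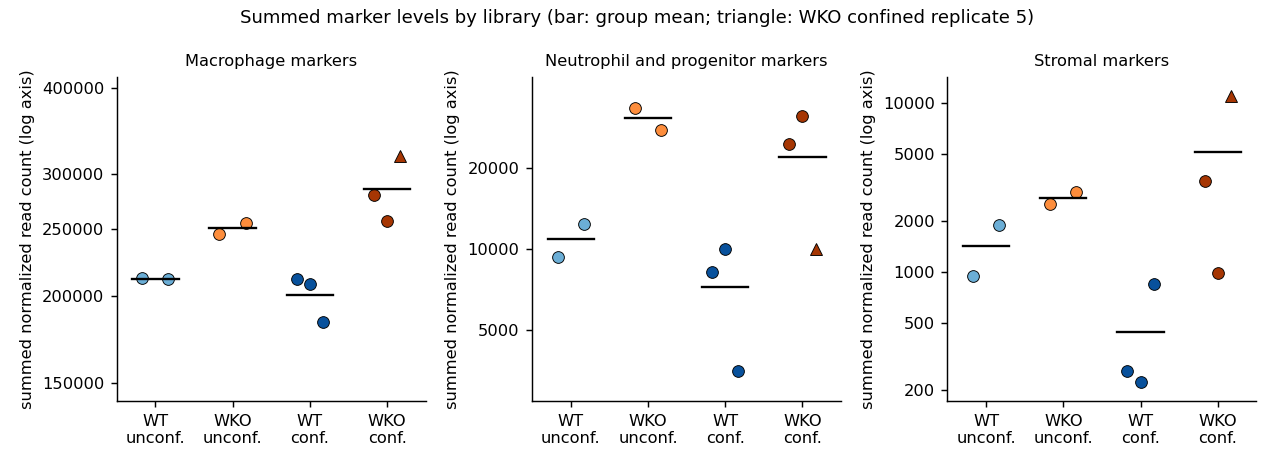
Summed normalized read counts (log axis) of macrophage, neutrophil and progenitor, and stromal marker genes in each library; points are libraries, bars are group means, and the triangle is WKO confined replicate 5. That library has the highest stromal sum (10895) and the lowest neutrophil and progenitor sum among the WKO libraries (9991).

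The sequences just upstream of the start site are shown for the ligands, which had their highest levels in confined cells, and for the antagonist, which followed genotype, because the 3 genes lie on the same chromosome with different patterns. Each is the run of 250 bases before the RefSeq start in the GRCm38.p6 assembly, 5′ to 3′ on the gene's strand, with a match to the AP-1 motif in capitals. Il1a is taken from chr2:129309973-129310222 on the minus strand, Il1b from chr2:129371140-129371389 on the minus strand, and Il1rn, first of its 3 RefSeq starts, from chr2:24336610-24336859 on the plus strand.
Il1a: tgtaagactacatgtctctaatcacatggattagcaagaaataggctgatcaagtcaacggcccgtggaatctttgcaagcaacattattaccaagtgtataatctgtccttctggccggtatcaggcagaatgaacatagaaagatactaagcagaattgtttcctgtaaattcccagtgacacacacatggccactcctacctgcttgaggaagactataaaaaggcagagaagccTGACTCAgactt
Il1b: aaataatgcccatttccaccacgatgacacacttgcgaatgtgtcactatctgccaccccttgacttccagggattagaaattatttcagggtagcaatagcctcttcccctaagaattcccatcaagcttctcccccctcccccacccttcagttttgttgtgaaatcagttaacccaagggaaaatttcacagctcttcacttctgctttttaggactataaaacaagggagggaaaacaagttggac
Il1rn: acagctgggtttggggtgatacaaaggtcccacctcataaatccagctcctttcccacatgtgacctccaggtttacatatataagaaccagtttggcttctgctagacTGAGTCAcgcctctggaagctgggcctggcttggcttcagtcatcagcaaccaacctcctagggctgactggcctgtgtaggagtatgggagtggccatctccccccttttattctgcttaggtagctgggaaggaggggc

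A total of 5 motifs were searched on both strands in windows of 250 bases before and 50 after each start, and 9 windows covered all 7 genes. TGANTCA (AP-1) was in 7.81% of all 32817 RefSeq windows, TGACGTCA (CRE) in 1.79%, TTCNNNGAA (STAT) in 8.29%, GAGGAAGT (PU.1) in 3.20% and the NF-kB consensus of 10 letters in 8.46%. Il1a held TGACTCA beginning 12 bases before the start, and Il1rn held TGAGTCA beginning 141 bases before its first start. The windows at the later Il1rn starts held no match, and which start these cells used was not measured. Il1r2 held TTCAAGGAA beginning 111 bases before its start. The other windows, Il1b included, held none of these letters. A match is a description of letters, not a measured site.

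Il1b, which encodes IL-1β, had low levels in unconfined cells of both genotypes and rose after confinement in both. Il1b (ENSMUSG00000027398, chr2:129364570-129371139, minus strand) had normalized read counts of 13.3 and 21.1 in unconfined WT cells (replicates 1 and 3) and of 18.7 and 32.0 in unconfined WKO cells (replicates 1 and 3). In confined cells it reached 637, 870.4 and 705 in WT (replicates 2, 3 and 6) and 968, 415 and 5615 in WKO (replicates 1, 2 and 5). Every confined library of a genotype lay above both unconfined ones of that genotype, and replicate 5 lay far above the rest of its group. The mean went from 17.2 ± 5.52 (n = 2) to 737 ± 120.0 (n = 3) in WT. In WKO it went from 25.4 ± 9.37 (n = 2) to 2333 ± 2856 (n = 3), or to 691 ± 391 (n = 2) without replicate 5.

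The confinement difference of Il1b on the scale of log2(normalized read count + 1) was 5.36 (SE 0.764) in WT, with an adjusted p of 0.00584 by limma. In WKO it was 5.68 (SE 0.764; limma adjusted p = 0.00343), 4.64 without replicate 5 (limma adjusted p = 3.81e-05) and 6.51 without replicate 2. Il1b was the only one of the 7 genes called in either of these comparisons, in which 1.16% of all tested genes were called for WT and 1.72% for WKO. The WT call was lost without WT unconfined replicate 1 or 3 (limma adjusted p 0.0926 and 0.0585). The WKO call was lost without WKO unconfined replicate 1 (limma adjusted p = 0.0638) and with only the WKO groups in the fit (0.0678).

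Il1b was not called between genotypes. WKO minus WT was 0.52 in unconfined cells (95% interval -1.31 to 2.35; limma adjusted p = 0.916) and 0.84 in confined cells (-0.65 to 2.33; limma adjusted p = 0.596). The libraries of the genotypes overlapped in both conditions. Without replicate 5 the confined value was -0.21 (limma adjusted p = 0.840), so the sign of the point estimate rested on that library.

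Il1a, which encodes IL-1α, a ligand that is active without caspase-1 cleavage, showed the same order of groups at a lower amplitude. Il1a (ENSMUSG00000027399, chr2:129299610-129309972, minus strand) stood at 50.3 and 24.0 in WT unconfined and at 54.3 and 74.3 in unconfined WKO cells. Confined WT cells had 257, 309.7 and 426, and confined WKO cells had 351, 239 and 4032. Confined and unconfined libraries of a genotype did not overlap, and replicate 5 was again the outlying one. Group means were 37.2 ± 18.6, 64.3 ± 14.2, 331 ± 86.3 and 1541 ± 2158 in the same order, and 295 ± 79.0 in confined WKO cells without replicate 5.

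The confinement difference of Il1a was 3.18 (SE 0.883; limma adjusted p = 0.137) in WT and 3.44 (SE 0.883; limma adjusted p = 0.0878) in WKO, neither past the threshold of 0.05. Without replicate 5 the WT value was the same and the WKO value was 2.17, and both were called (limma adjusted p 0.000108 and 0.00586). The WKO value was also called without WKO confined replicate 1 or 2 (limma adjusted p 0.0309 and 0.0345), at 4.21 without replicate 2. The WT value was called as well with only the WT groups in the fit (limma adjusted p = 0.00173). With replicate number added to the fit as a block, both values were called (limma adjusted p 5.16e-05 in WT and 0.00139 in WKO). Over all alternatives the WT adjusted p ranged from 5.16e-05 to 0.548. WKO minus WT was 0.85 (-1.26 to 2.96) in unconfined and 1.10 (-0.62 to 2.83) in confined cells, with limma adjusted p of 0.861 and 0.538. The confined value turned to -0.16 without replicate 5 (limma adjusted p = 0.872). That library also had the highest stromal marker sum (10895), and the part of other cell types in its ligand levels was not tested. An annotated antisense gene, Gm14023, shares 222 exonic bases with Il1a, and its own level was at most 9.60. The lncRNA Il1bos shares 25 with Il1b and was at most 4.69. The use of strand in counting is not stated, so reads in shared bases cannot be told apart.

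**Figure D2:**
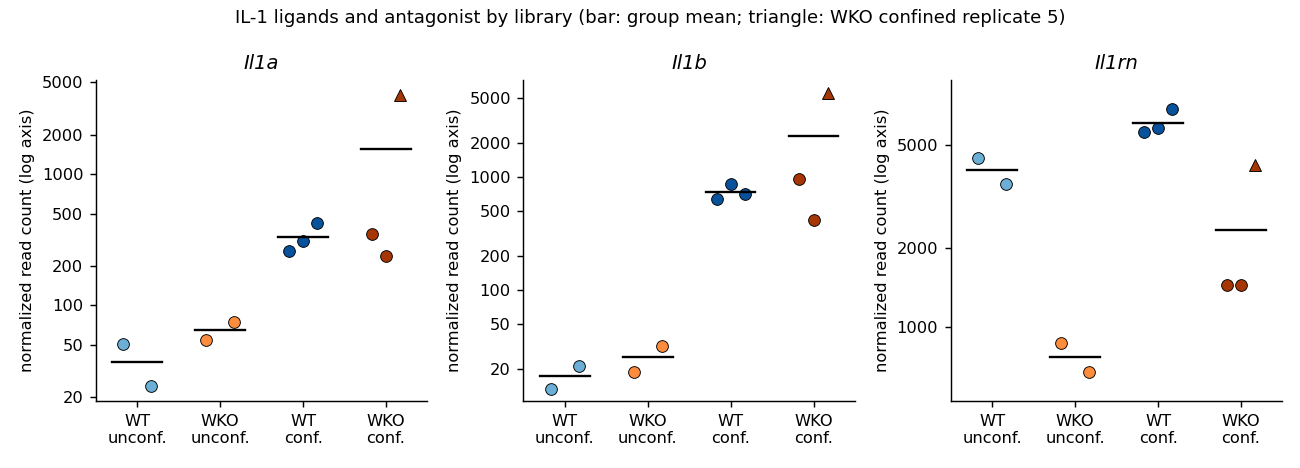
Normalized read counts (log axis) of Il1a, Il1b and Il1rn in each library; points are libraries, bars are group means, and the triangle is WKO confined replicate 5. Both ligands are higher in confined libraries of each genotype, and every WKO library lies below every WT library of the same condition for Il1rn (4158 at most against 5586 at least in confined cells).

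Il1rn, the antagonist, was the 1 member called between genotypes in both conditions, with lower levels in WKO cells. Il1rn (ENSMUSG00000026981, chr2:24336853-24351494, plus strand) had 4455 and 3515 in unconfined WT cells and 863 and 673 in unconfined WKO cells. Confined WT cells had 5586, 5782 and 6812, and confined WKO cells had 1453, 1443 and 4158. No WKO library reached a WT library of its own condition, although WKO confined replicate 5 lay within the range of the unconfined WT libraries. Unconfined WKO cells averaged 19.3% of the WT level (768 ± 134 against 3985 ± 665, n = 2 each). Confined WKO cells averaged 38.8% of it (2351 ± 1564 against 6060 ± 659, n = 3 each), with a WKO mean of 1448 ± 6.82 (n = 2) without replicate 5.

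In unconfined cells Il1rn fell by 2.37 on the log2 scale in WKO relative to WT (SE 0.394; limma adjusted p = 0.0477), the only member among the 0.145% of tested genes called there. That call lay just inside the threshold: it was lost with edgeR's quasi-likelihood test on recovered reads (adjusted p = 0.0785), without the filter (limma adjusted p = 0.0931) and on leaving out any 1 library other than WKO confined replicate 1 or 5, with limma adjusted p between 0.0530 and 0.548, while the difference stayed between -2.55 and -2.20. In confined cells Il1rn fell by 1.55 (SE 0.322; limma adjusted p = 0.0283), or by 2.06 without replicate 5 (limma adjusted p = 1.46e-05). With edgeR the confined adjusted p was 0.0586, and by limma it was 0.0621 without the filter and 0.0963 with only the confined groups in the fit. The call was also lost without WKO unconfined replicate 1 or 3, WT confined replicate 2, 3 or 6, or WKO confined replicate 2, with limma adjusted p from 0.0509 to 0.101 and differences no smaller in size than -1.30. In confined cells 2 members were called, Il1rn lower and Il1r2 higher, against 2.59% of all tested genes. Il1r2 passed the filter on low values through its WKO libraries, so no weight is placed on its call or on this count.

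Confinement differences of Il1rn had smaller point values than those of the ligands. They were 0.61 (SE 0.360; limma adjusted p = 0.547) in WT and 1.43 (SE 0.360; limma adjusted p = 0.0800) in WKO, neither past the threshold, although confined and unconfined libraries of each genotype did not overlap. Without replicate 5 they were 0.61 and 0.92, and both were called (limma adjusted p 0.0301 and 0.00586). The WT value was also called with only the WT groups in the fit (limma adjusted p = 0.0391). The WKO value was also called without WKO confined replicate 1 (limma adjusted p = 0.0204) and with the replicate block (0.00640). In level order the groups ran from WKO unconfined through WKO confined and WT unconfined to WT confined, and the middle pair overlapped in their libraries.

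Because the antagonist competes with both agonists for 1 receptor, their transcript levels were set against each other within each library, after division by the length of the longest coding transcript (1974 bases for Il1a, 1356 for Il1b and 2474 for Il1rn). The ratio of Il1rn to the sum of Il1a and Il1b was 51.0 and 51.3 in unconfined WT cells and 8.45 and 4.44 in unconfined WKO cells. In confined cells it was 3.76, 2.93 and 3.75 in WT, and 0.659, 1.37 and 0.272 in WKO (replicates 1, 2 and 5). The 4 groups did not overlap, and per kilobase the ligand transcripts together exceeded the antagonist transcript in 2 of the 3 WKO confined libraries. By normalized read count they did so only in replicate 5 (9647 against 4158). In replicate 1 the ligands summed to 1319 against 1453 for Il1rn. Coding transcripts of Il1rn run from 321 to 2474 bases, so a ratio above or below 1 depends on the length used. Since the genes were chosen with their levels in view, these ratios carry no test.

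The composition of the ligand pool differed as well. Per kilobase, Il1b over Il1a was 0.385 and 1.28 in unconfined WT cells and 0.503 and 0.627 in unconfined WKO cells. It was 3.61, 4.09 and 2.41 in confined WT cells and 4.02, 2.53 and 2.03 in confined WKO cells. Il1b was the more abundant ligand in all 6 confined libraries and the less abundant one in 3 of the 4 unconfined libraries.

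**Figure D3:**
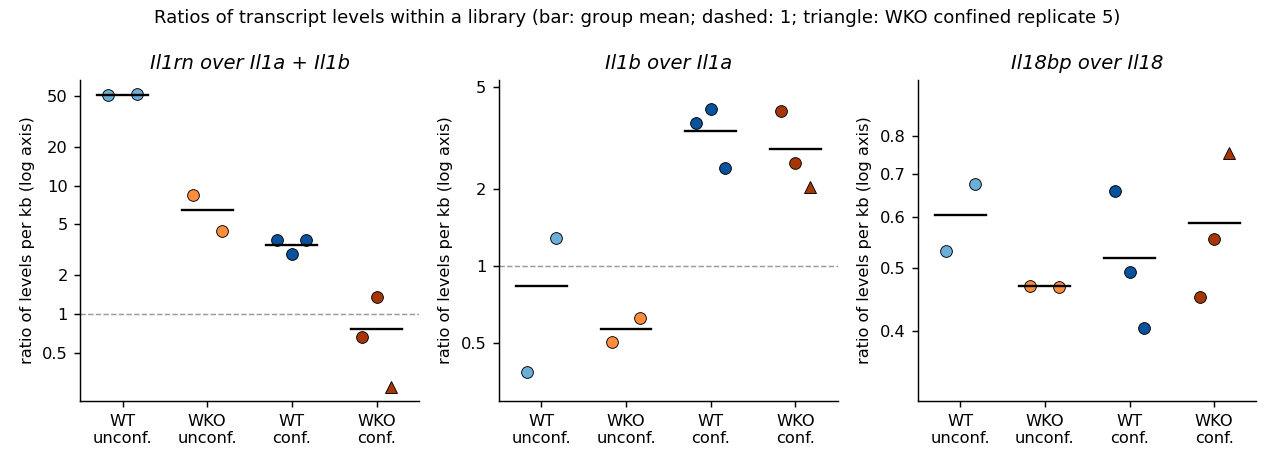
Ratios of transcript levels per kilobase within each library (log axes): Il1rn over the sum of Il1a and Il1b, Il1b over Il1a, and Il18bp over Il18; points are libraries, bars are group means, dashed lines mark a ratio of 1, and the triangle is WKO confined replicate 5. The first ratio goes from about 51.0 in unconfined WT cells to between 0.272 and 1.37 in confined WKO cells.

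Il18 and its inhibitor Il18bp did not share the confinement pattern of the ligands. Il18 (ENSMUSG00000039217, chr9:50554827-50581840, plus strand) had 147 and 108 in unconfined WT cells, 206 and 219 in unconfined WKO cells, 93.2, 108 and 95.6 in confined WT cells, and 209, 131 and 182 in confined WKO cells. Every WKO library lay above every WT library of its condition. WKO minus WT was 0.74 (95% interval 0.17 to 1.31; limma adjusted p = 0.371) in unconfined and 0.78 (0.32 to 1.25; limma adjusted p = 0.0792) in confined cells, neither past the threshold. Without WKO confined replicate 5 the confined value was 0.74 (limma adjusted p = 0.136). The confinement differences were -0.35 in WT and -0.31 in WKO (limma adjusted p 0.603 and 0.600).

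Il18bp (ENSMUSG00000070427, chr7:102014885-102018690, minus strand) had 229.9 and 215 in unconfined WT cells, 284 and 300.4 in unconfined WKO cells, 180.0, 156 and 113 in confined WT cells, and 277, 213 and 403 in confined WKO cells. WKO libraries again lay above WT libraries of the same condition. WKO minus WT was 0.39 (limma adjusted p = 0.741) in unconfined and 0.96 (0.45 to 1.48; limma adjusted p = 0.0564) in confined cells, the latter 0.72 without replicate 5 (limma adjusted p = 0.102). Without WKO confined replicate 2 both confined differences were called, with limma adjusted p of 0.0427 for Il18 and 0.0302 for Il18bp. Il18bp shares 80 exonic bases with Numa1 on the other strand, a gene at 2981 to 3707, so part of its reads may belong to Numa1.

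Per kilobase of the longest coding transcript (2596 bases for Il18bp and 885 for Il18), Il18bp stood below Il18 in every library. By normalized read count Il18bp stood above Il18 in every library. Coding transcripts of Il18bp run from 498 to 2596 bases, so the order of these genes depends on the length used. Il18bp over Il18 was 0.532 and 0.676 in unconfined WT cells, 0.470 and 0.468 in unconfined WKO cells, 0.658, 0.493 and 0.404 in confined WT cells, and 0.451, 0.555 and 0.754 in confined WKO cells. The ranges of both confined groups overlapped those of the unconfined groups. Across the 10 libraries, which share cultures of 2 genotypes, Pearson's r of log2 levels with Il1rn was -0.79 for Il18 and -0.57 for Il18bp, and -0.88 and -0.84 without replicate 5, given as a description.

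Among the receptor chains, the decoy Il1r2 had low levels, with its highest values in WKO cells. Il1r2 (ENSMUSG00000026073, chr1:40074079-40125231, plus strand) had 8.55 and 5.76 in unconfined WT cells, 30.6 and 14.5 in unconfined WKO cells, 12.9, 10.6 and 12.1 in confined WT cells, and 66.7, 62.1 and 41.9 in confined WKO cells, from 6 to 85 reads per library. It passed the filter on low values through its WKO libraries, since the WT unconfined mean was 7.15 ± 1.97 (n = 2). All WKO libraries lay above all WT libraries. In confined cells WKO minus WT was 2.15 (SE 0.442; limma adjusted p = 0.0273), and 2.35 without replicate 5 (limma adjusted p = 0.0249). The confined WT mean was 11.8 ± 1.17, so the filter did not by itself force a difference in confined cells. A low gene kept through the group where it is high is still more likely to differ, so no weight is placed on that call. It was lost when no filter was applied (limma adjusted p = 0.0829). It was also lost without WT confined replicate 2, 3 or 6 or WKO confined replicate 2 (limma adjusted p from 0.0754 to 0.0978). In unconfined cells the difference was 1.46 (95% interval 0.28 to 2.64; limma adjusted p = 0.402).

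Il1r2 is also a gene of neutrophils. The neutrophil and progenitor marker sums were higher in both WKO unconfined libraries than in either WT unconfined library, and higher in WKO confined replicates 1 and 2 (24500.2 and 31235) than in any WT confined library (9999.6 at most). In WKO confined replicate 5 that sum was 9991 and Il1r2 was 41.9. The part of neutrophil transcripts in the Il1r2 difference was not tested.

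Il1rap, the accessory chain without which IL-1R1 does not signal, had the steadiest levels. Il1rap (ENSMUSG00000022514, chr16:26581704-26730117, plus strand) had 188 and 216 in unconfined WT cells, 265 and 217 in unconfined WKO cells, 244, 259 and 242 in confined WT cells, and 209, 340.0 and 303 in confined WKO cells. The genotypes overlapped in confined cells, and in unconfined cells the higher WT library (216) lay just under the lower WKO library (217). WKO minus WT was 0.25 and 0.16, and the confinement differences were 0.30 and 0.21 (limma adjusted p from 0.624 to 0.816). Gm20319, which shares 552 exonic bases with it, had at most 1 read in a library.

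**Figure D4:**
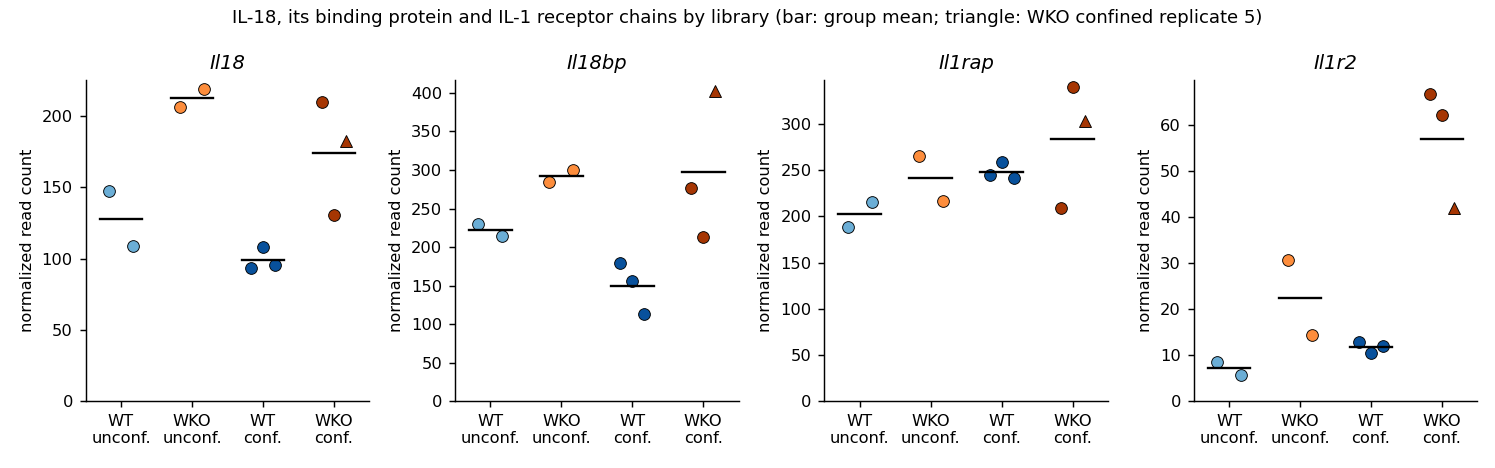
Normalized read counts of Il18, Il18bp, Il1rap and Il1r2 in each library (linear axes from 0); points are libraries, bars are group means, and the triangle is WKO confined replicate 5. WKO libraries lie above WT libraries of the same condition for Il18, Il18bp and Il1r2, and Il1r2 reaches 66.7 in confined WKO cells.

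Per kilobase of the longest coding transcript, the order of the 7 levels differed between groups. Dividing by a shorter coding transcript of Il18bp or Il1rn would raise its level. In WT unconfined cells Il1rn (1611) was followed by Il18 (144), Il18bp (85.7), Il1rap (44.7), Il1a (18.8), Il1b (12.7) and Il1r2 (5.04). In WKO confined cells Il1b (1720) came first, then Il1rn (950.4), Il1a (780.4), Il18 (197), Il18bp (115), Il1rap (62.8) and Il1r2 (40.1). That order rested on replicate 5: without it Il1rn (585) came first, then Il1b (509.9), Il18 (192) and Il1a (149). In WT confined cells Il1rn led (2450) ahead of Il1b (544) and Il1a (168).

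Whether confinement acted differently in the 2 genotypes was tested as the confinement difference in WKO minus that in WT. None of the 7 genes was called, and 0.0% of all tested genes were. At an unadjusted p under 0.05, 258 genes passed by limma and 261 by edgeR's quasi-likelihood test, none of them a member. The interval was -2.47 to 2.98 for Il1a, -2.04 to 2.68 for Il1b and -0.29 to 1.93 for Il1rn, so these data leave room for large differences in either direction for the ligands. For Il18, Il18bp, Il1rap and Il1r2 the point values were 0.04, 0.57, -0.09 and 0.69. The 4 other comparisons share libraries with one another and are set side by side without a test between them. The median difference of the 7 members was 0.52 and 0.84 for genotype in unconfined and confined cells, and 0.61 and 1.36 for confinement in WT and WKO, beside 0.0022, 0.0036, -0.0066 and -0.013 over all tested genes. Without WKO confined replicate 5 the members' median was 0.10 for genotype in confined cells and 0.92 for confinement in WKO, and the other 2 medians were the same. The members were chosen with their values in view and mix agonists with an antagonist and a decoy. Their medians are therefore a description and not a result about the set.

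**Figure D5:**
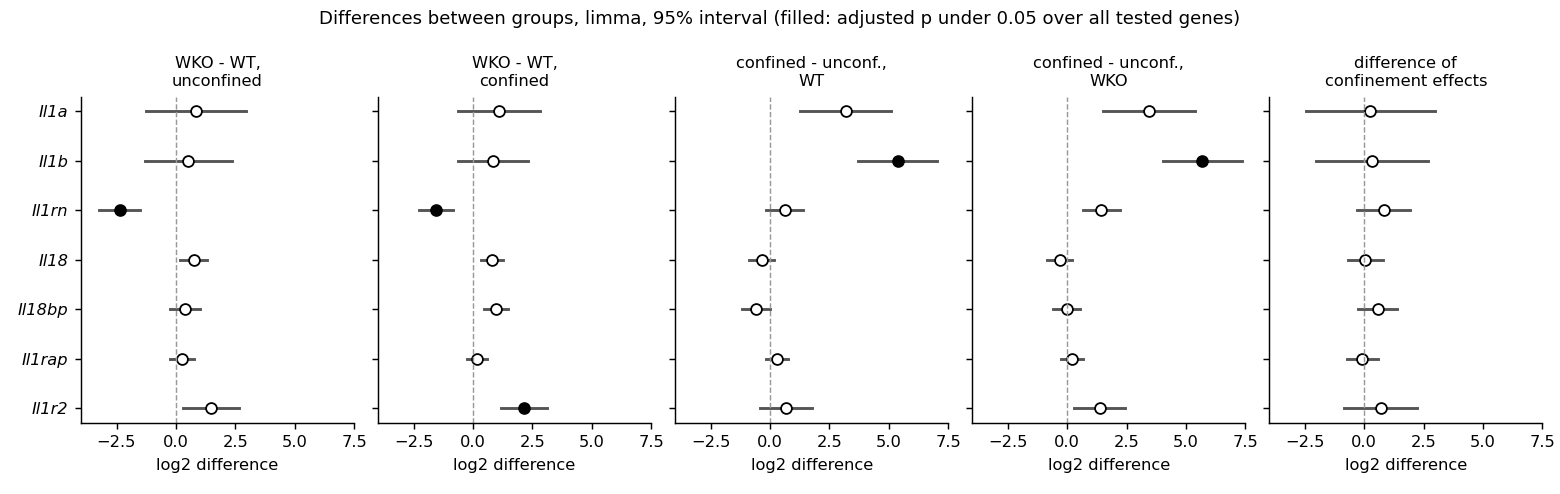
Differences between groups on the log2(normalized read count + 1) scale for the 7 genes in 5 panels, one per comparison; points are limma estimates, lines are 95% intervals, and filled points have an adjusted p under 0.05 over all tested genes. Il1rn is filled in both genotype panels, Il1r2 in the confined genotype panel, Il1b in both confinement panels, and no point is filled in the panel for the difference of confinement effects.

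The rest of the pathway was read from lists of genes. Of 6 other family ligands, Il33, Il36a, Il36b, Il36rn and Il1f10 had 0 reads in all 10 libraries and only Il36g was tested, without a call. Of 8 other receptors 5 were tested and 1 was called, in the confined genotype comparison (2.59% of all tested genes). Il1rl1, the receptor for IL-33, fell by 2.06 in confined WKO relative to confined WT cells (SE 0.369; limma adjusted p = 0.0160). Without WKO confined replicate 5, its lowest library, the fall was 1.63 (limma adjusted p = 0.0111). Its levels were 172, 122 and 194 in confined WT cells and 49.4, 52.6 and 20.4 in confined WKO cells, without overlap. The call was lost without WT confined replicate 2 or 6 (limma adjusted p 0.0698 and 0.0663) and with only the confined groups in the fit (0.0538). Il1r1, the signalling receptor for IL-1, was low throughout: 0.00 and 5.76 in unconfined WT cells, 16.8 and 11.4 in unconfined WKO cells, 18.2, 38.7 and 28.1 in confined WT cells, and 27.5, 6.32 and 33.5 in confined WKO cells, with no call in any comparison.

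Genes for the processing and release of IL-1 and IL-18 gave 1 call among 15 tested, in the confined genotype comparison, where 2.59% of all tested genes were called. Capn2, a calpain subunit of the protease family that cleaves pro-IL-1α, fell by 0.44 in confined WKO relative to confined WT cells (limma adjusted p = 0.0327), a call lost on leaving out any 1 of WKO unconfined replicates 1 and 3, WT confined replicates 2, 3 and 6 and WKO confined replicate 2 (0.0661 to 0.134), without the filter (0.0674) and with only the confined groups in the fit (0.110). Casp1, the protease that matures IL-1β and IL-18, lay between 1004 and 1127 in every library. Nlrp3, an inflammasome sensor, had 745 and 785 in unconfined WT cells and 814 and 871 in unconfined WKO cells. In confined cells it had 2342, 2602 and 2925 in WT and 2253, 1676 and 7187 in WKO, without overlap with the unconfined libraries. Its confinement differences of 1.77 in WT and 1.83 in WKO missed the threshold (limma adjusted p 0.0894 and 0.0611) and passed it without WKO confined replicate 5, at 1.77 and 1.21 (1.23e-05 and 0.000899). They also passed it without WKO confined replicate 2, and in WKO without replicate 1. With the replicate block both passed (limma adjusted p 9.32e-06 in WT and 0.000165 in WKO), and with only the WT groups in the fit the WT value passed (0.000122).

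Of 19 genes that signal below the receptors, 18 were tested and 1 was called, for confinement in WKO (1.72% of all tested genes). Tollip, an adaptor that restrains IL-1 receptor signalling, rose by 0.62 with confinement in WKO (limma adjusted p = 0.0286), a call lost without WKO unconfined replicate 1 or 3 or WT confined replicate 2 or 3 (0.0605 to 0.245) and with only the WKO groups in the fit (0.226). The list's medians lay between -0.05 and 0.19 in the 5 comparisons.

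Of 10 transcription factors known to act on Il1b, a list drawn up with these results known, 3 rose with confinement in WT, where 1.16% of all tested genes were called, and 4 in WKO, where 1.72% were, and none fell. The list's choice means that its counts are a description and no support. Rel, the NF-kB subunit c-Rel, rose by 2.33 in WT (limma adjusted p = 0.00558) and by 2.34 in WKO (limma adjusted p = 0.00409), from 549.9 to 851 in unconfined libraries to 2554 to 7315 in confined ones. Cebpb, a factor of the C/EBP family, rose by 1.95 and 1.92 (limma adjusted p 0.0218 and 0.0184), and Fos, an AP-1 subunit, by 1.56 and 2.27 (limma adjusted p 0.0463 and 0.00480). Jun, its AP-1 partner, rose by 1.76 in WKO (limma adjusted p = 0.0116), and its WT value was 0.77 (limma adjusted p = 0.302). Without WKO confined replicate 5 the WKO values were 1.88 for Rel, 1.79 for Cebpb, 2.18 for Fos and 1.58 for Jun. All 4 stayed called. The remaining 6, Spi1, Nfkb1, Rela, Irf4, Irf8 and Hif1a, were not called in any comparison. The WT value of Cebpb was 1.22 without WT unconfined replicate 1 and 2.68 without replicate 3. With edgeR the WT calls of Cebpb and Fos were lost (adjusted p 0.0551 and 0.0663), and without the filter that of Fos (0.0937). With only the WKO groups in the fit the WKO calls of Rel, Fos and Jun were lost (0.0840, 0.0840 and 0.0678). The WT calls were lost without WT unconfined replicate 1 for all 3 genes, without replicate 3 for Rel and Fos, and without any 1 WT confined library for Fos and Cebpb (limma adjusted p from 0.0618 to 0.292). The WKO calls were lost without WKO unconfined replicate 1 for Rel and Cebpb and without replicate 3 for Fos and Jun (limma adjusted p from 0.0639 to 0.272).

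Among 6 genes for decay of cytokine mRNA, also listed with results known, 2 rose with confinement in both genotypes, beside 1.16% of all tested genes called in WT and 1.72% in WKO. Zc3h12a, the endonuclease Regnase-1, rose by 3.01 in WT (limma adjusted p = 0.000985) and by 2.86 in WKO (limma adjusted p = 0.000837). Zfp36, which encodes tristetraprolin, rose by 2.07 and 1.82 (limma adjusted p 0.0235 and 0.0336). Without WKO confined replicate 5 the WKO values were 2.565 for Zc3h12a and 1.45 for Zfp36. The Zc3h12a calls held on leaving out each library in turn. Those of Zfp36 were lost without either unconfined library of the genotype, without WT confined replicate 3 or 6 in WT, and without WT unconfined replicate 1 or 3 or WT confined replicate 3 in WKO (limma adjusted p from 0.0638 to 0.326). They were lost without the filter too (0.0511 and 0.0626), and in WKO with only the WKO groups in the fit (0.138). None of the 6 was called between genotypes.

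The genes most like each ligand and the antagonist were taken by Pearson's r of log2 levels over the 10 libraries among 10217 genes with a mean of at least 50, with no p because the libraries share group differences. For Il1b these were Nfkbiz (0.991), Kdm6b (0.990), Gem (0.990), Clec4e (0.990) and Cd83 (0.987). For Il1a they were Orai2 (0.981), Mtmr12 (0.980), Slfn2 (0.977), A930011G23Rik (0.976) and Birc3 (0.975). Il1a and Il1b had an r of 0.944 with each other. For Il1rn they were Fads2 (0.980), Stx3 (0.973), P4ha1 (0.972), Zbtb18 (0.969) and Tpm4 (0.967), and its r with Il1b was 0.399. These lists shared no gene with one another, those of Il1a and Il1b included. Fads2, a fatty acid desaturase, had mean levels of 410.3 in unconfined WT cells, 171 in unconfined WKO cells, 481 in confined WT cells and 290.2 in confined WKO cells. Nfkbiz, which encodes the nuclear IκB protein IκBζ, had means of 78.8, 168, 2997 and 5668 in the same order.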

How the data were processed

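Each sequencing library started from 5 ng of RNA and an mRNA kit, per the labels' protocols. The authors deposited a signal per gene and library, here called a normalized read count. FastQC, Trim Galore, STAR and the build GRCm38 (mm10) are named per the submitters' processing notes; their versions, the counting tool, gene models and strand setting are not given in the sources used here. In each library 100% of deposited non-zero values were integer multiples of the lowest one (relative tolerance 1e-06), so read counts were recovered by division. Such scaling removes depth, not composition or length.

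The test was limma 3.58.1 (R 4.3.3) on log2(normalized read count + 1): 1 mean per group over all 10 libraries (6 residual degrees of freedom), empirical Bayes with trend, 5 contrasts, Benjamini-Hochberg adjustment over 12455 genes with a mean of at least 10, threshold 0.05. Fold changes on this scale understate those of low genes. The script was tested on simulated data. Alternatives were pseudocount 4, no filter, TMM scaling, edgeR 4.0.16 on recovered reads, a replicate block, only the groups compared, and each library left out.

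The members, the pathway lists and the markers were chosen with earlier results of these data known. Beside the members and Was, the named genes are pathway genes called in at least 1 contrast (up to 6 per list), Il1r1, Casp1, Nlrp3 and Il33, and the 5 genes with the highest Pearson r with Il1b, Il1a or Il1rn. Places and transcript lengths came from GENCODE M21 (GRCm38), promoters from RefSeq (GRCm38.p6). By blastn 2.17.0 no member shared 20% of its transcript with another gene. A chi-square between the reads of replicates gave between 7.56 and 78.3 per degree of freedom, so no library was a repeat of another in its group. Libraries of different groups were not compared in this way. Marker sums not given above were, over all libraries, 16.1 to 66.3 for dendritic cells (Xcr1 at 0), 0.00 to 5.26 for T cells, and 12.0 to 107 for mast cells and basophils.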

Additional observations from a re-analysis of the deposited data

How the results depend on the processing

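The sign of a member's difference held in every alternative run except for the values given here. Of the members' values, 487 kept sign and call, 29 lost the call, 14 gained it and 23 turned sign. Genes called between genotypes in unconfined cells (18) numbered 10 without a filter, 245 with the replicate block, 189 with only the groups compared, and 4 to 141 with 1 library left out; members called (1) numbered 0 without a filter, 0 with edgeR and 0 to 1 with a library left out. In confined cells (322) they numbered 186 without a filter, 90 with only the groups compared and 58 to 701 with a library left out; members (2) numbered 0 without a filter, 1 with edgeR, 1 with the block, 1 with only the groups compared and 0 to 2 with a library left out. For confinement in WT (144) they numbered 455 with only the groups compared and 22 to 397 with a library left out, and members (1) 2 with the block, 3 with only the groups compared and 0 to 3. For confinement in WKO (214) they numbered 33 with only the groups compared and 43 to 1043 with a library left out, and members (1) 3 with the block, 0 with only the groups compared and 0 to 3. The difference of confinement effects gave 0 calls throughout. Deviations of same-numbered libraries from their group means had r from -0.1098 to 0.0764 over 7 pairs. In groups of 2 libraries the deviations mirror each other, so the 7 values are not separate checks. They do not settle whether the numbers mark shared cultures. Replicates 5 and 6 occur once and drop out of the block fit. With the block the confined genotype differences turned to -0.11 for Il1a and -0.036 for Il1b, and the differences of confinement effects to -0.96, -0.56 and -0.15 for Il1a, Il1b and Il18. The block also ended the calls of Il1r2 (limma adjusted p = 0.163) and Capn2 (0.240) in the confined genotype comparison and of Tollip in WKO confinement (0.197). With edgeR the WKO confinement difference of Il18bp was 0.013. Leaving out 1 library gave ranges of -0.16 to 1.88 and -0.21 to 1.67 for the confined genotype differences of Il1a and Il1b, and -0.27 to 0.19 for Il18bp in WKO confinement. For the difference of confinement effects it gave -1.01 to 1.03 for Il1a, -0.73 to 1.15 for Il1b, -0.18 to 0.26 for Il18 and -0.23 to 0.12 for Il1rap. The causes were not tested. Il1r2, at 6 to 85 reads per library, is the member most limited by depth.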
